A study of Arabidopsis thaliana with 12 samples.

Results

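miR396 of Arabidopsis thaliana comes from 2 precursor genes, MIR396a (AT2G10606) and MIR396b (AT5G35407), and each gives a mature product from both arms of its hairpin. The deposited tables list these products as 4 entries, ath-miR396a-5p, ath-miR396a-3p, ath-miR396b-5p and ath-miR396b-3p, out of 240 different miRNA entries. They were chosen by name, as every entry of the miR396 family, and all 4 were listed in all 12 libraries. The locus tags were taken from RefSeq's genes of TAIR10.1.

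In plants, the 5p arm of miR396 is the guide strand, which ARGONAUTE1 (AGO1) uses to cut or silence its target mRNAs. Its best known targets in Arabidopsis are the GROWTH-REGULATING FACTOR (GRF) genes, whose transcription factors work with GIF coactivators to promote cell division in leaf primordia and in the root meristem. miR396 rises as organs mature and so limits the GRF proteins to dividing cells. The 3p arm is the partner strand of the duplex, which is usually discarded when the guide is loaded.

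Plants of ecotype Col-0 were either wild type (WT) or carried ktn1-20, a mutant allele of KTN1, the catalytic subunit of the microtubule-severing enzyme katanin. In 8 libraries, small RNA was recovered from 9-day-old roots by immunoprecipitation of AGO1 fused to GFP, expressed from the ACL5 promoter (metaxylem and procambium) or the EN7 promoter (endodermis) in either genotype. In 4 libraries, total small RNA came from 14-day-old seedlings without a transgene, WT or ktn1-20. Each group held 2 libraries, and as nothing says that these came from separate plants or pools, p-values measure only the spread between libraries. The tables hold no transcripts, so the markers of endodermis, metaxylem or procambium were not checked, and neither was KTN1. The per-million denominators were 5804745 to 13004041 reads in the AGO1 libraries and 13769316 to 44332443 in the seedling libraries. Listed miRNAs made up 25.1% to 59.5% of the denominator in AGO1 libraries and 1.68% to 2.45% in seedlings, so levels in RPM (reads per 1000000 reads) are set side by side across the assays but not compared.

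The replicates of ACL5 ktn1, and those of EN7 WT, stood apart from each other in the 3p entries. miR396a-3p was 30.7-fold higher in ACL5 ktn1 replicate 1 than in replicate 2, and 40.6-fold higher in EN7 WT replicate 1 than in replicate 2. Results on the 3p arm are therefore given per library, and with each of those libraries left out where that changes a call.

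miR396b-5p, the guide from MIR396b, was by far the most abundant product. It stood at 2995 and 2386 RPM in ACL5 WT and at 2600 and 3738 RPM in ACL5 ktn1. The EN7 WT libraries held 4387 and 8226 RPM, the EN7 ktn1 libraries 9759 and 5124 RPM. All 4 ACL5 libraries lay below all 4 EN7 libraries, while WT and ktn1 overlapped in both layers. Of 86 entries, 8.14% lay wholly below in ACL5 in this way and 14.0% wholly above. miR396b-5p ranked between 7 and 15 among the miRNAs of each AGO1 library.

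In WT seedlings miR396b-5p was at 588 and 677 RPM, against 778 and 492 RPM in ktn1 seedlings. The ktn1 libraries lay on either side of both WT libraries. There it ranked 8 or 9, much as in the EN7 libraries, where it ranked between 7 and 9.

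miR396a-5p, the guide from MIR396a, was lower throughout. It stood at 200 and 132 RPM in ACL5 WT, at 229 and 423 RPM in ACL5 ktn1, at 725 and 408 RPM in EN7 WT and at 546 and 387 RPM in EN7 ktn1. The order of the group means was EN7 WT, EN7 ktn1, ACL5 ktn1 and ACL5 WT, and the first 3 overlapped with their neighbours. ACL5 WT lay below the libraries of every other AGO1 group. Separations between 2 groups were common. Of 86 entries, 25.6% lay wholly below and 30.2% wholly above EN7 WT in ACL5 WT. In ACL5 ktn1, 24.4% lay wholly above and 23.3% wholly below ACL5 WT. The share of entries with ACL5 WT below every other AGO1 group was not counted. In WT seedlings miR396a-5p was at 213 and 221 RPM, against 233 and 176 RPM in ktn1 seedlings, with the ktn1 libraries again on either side.

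The group means of miR396b-5p followed a slightly different order, from 7441 ± 3278 RPM in EN7 ktn1 and 6306 ± 2715 RPM in EN7 WT to 3169 ± 805 RPM in ACL5 ktn1 and 2690 ± 430 RPM in ACL5 WT (SD, n = 2 each). Within each layer these means differed by less than the spread between replicates. The ratio of miR396b-5p to miR396a-5p was 15.0 and 18.1 in ACL5 WT, 11.4 and 8.83 in ACL5 ktn1, 6.05 and 20.1 in EN7 WT, and 17.9 and 13.2 in EN7 ktn1. Both ACL5 ktn1 libraries lay below both ACL5 WT libraries, a difference of -0.72 on the log2 scale (exact two-sided permutation p = 0.3333, the smallest that 2 libraries against 2 can give). In the EN7 lines the ktn1 libraries lay within the WT range. In seedlings the ratio was narrower, from 2.76 to 3.34 in the 4 libraries. Reads listed as miR396a-5p thus took a larger part of the 5p reads there than in any AGO1 library. The 5p arms of the 2 loci are near-identical, and how their reads were split between the 2 entries was not checked. The family sum does not depend on that split. The seedling libraries differ from the AGO1 libraries in tissue, age and assay, and these cannot be told apart.

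**Figure D1:**
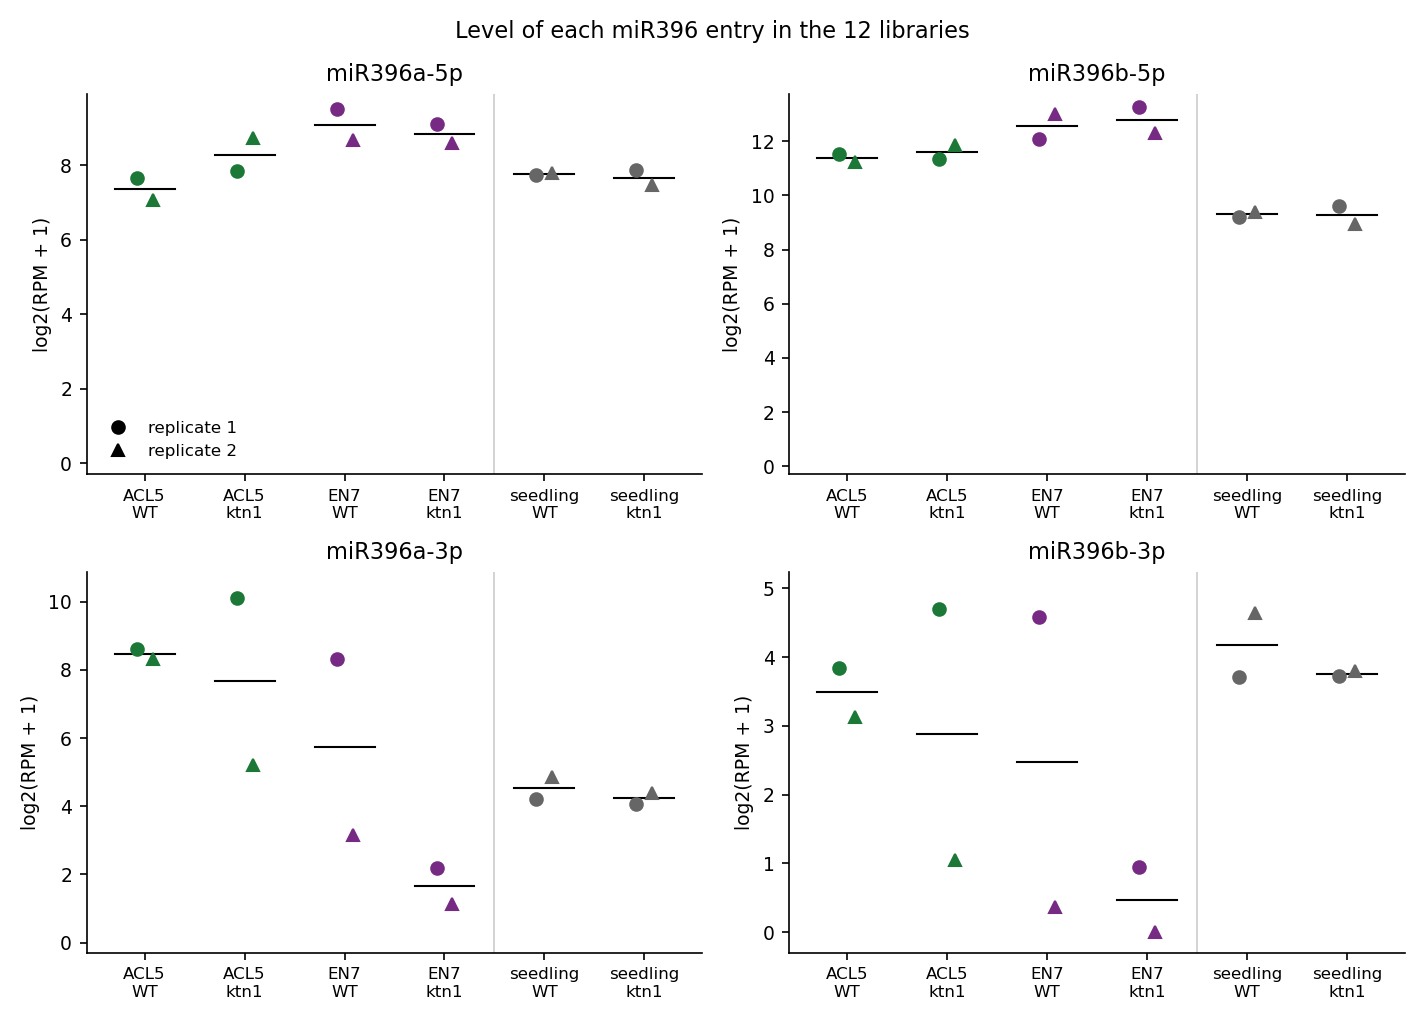
Level of each miR396 entry as log2(RPM + 1) in the 12 libraries, by group. Points are libraries (circle, replicate 1; triangle, replicate 2), short lines are means of the log2 values, and the scale of the vertical axis differs between panels. All ACL5 libraries lie below all EN7 libraries for miR396b-5p, as for 8.14% of 86 entries (14.0% lie wholly above). The 3p entries are split within ACL5 ktn1 and within EN7 WT.

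miR396a-3p, the partner strand from MIR396a, spread over a wide range. It was at 388 and 316 RPM in ACL5 WT, at 1114 and 36.3 RPM in ACL5 ktn1, at 322 and 7.92 RPM in EN7 WT and at 3.54 and 1.18 RPM in EN7 ktn1. Both ACL5 WT libraries, ACL5 ktn1 replicate 1 and EN7 WT replicate 1 were high, and both EN7 ktn1 libraries were the lowest. In ACL5 ktn1 replicate 1 it ranked 19 among all miRNAs of the library, and in EN7 ktn1 replicate 2 it ranked 102, with 12 inferred reads.

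miR396b-3p, the partner strand from MIR396b, was scarce. It was at 13.4 and 7.75 RPM in ACL5 WT, at 25.1 and 1.07 RPM in ACL5 ktn1, at 22.9 and 0.288 RPM in EN7 WT and at 0.923 and 0 RPM in EN7 ktn1. The same 4 libraries were high as for miR396a-3p. The value in EN7 WT replicate 2 rests on 2 inferred reads, under the floor of 3 reads (0.432 RPM), and no read in EN7 ktn1 replicate 2 allows up to 0.294 RPM. The floor covers counting error only.

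In seedlings both partner strands were close to each other in level. In WT seedlings miR396a-3p was at 17.5 and 28.1 RPM, against 15.8 and 20.0 RPM in ktn1 seedlings. miR396b-3p was at 12.1 and 24.0 RPM, against 12.2 and 12.9 RPM. Neither strand separated the genotypes. The ratio of miR396a-3p to miR396b-3p was thus 1.17 to 1.56 in the 4 seedling libraries. In ACL5 WT it was 29.0 and 40.8, in ACL5 ktn1 replicate 1 it was 44.5, and in EN7 WT replicate 1 it was 14.1. In these 4 AGO1 libraries miR396b-3p had 45 to 228 inferred reads, and the MIR396a partner stood above the MIR396b partner although its guide was the lower one. The other 4 AGO1 libraries had few miR396b-3p reads. The ratio was 34.0 in ACL5 ktn1 replicate 2 (10 reads), 27.5 in EN7 WT replicate 2 (2 reads) and 3.83 in EN7 ktn1 replicate 1 (12 reads), and EN7 ktn1 replicate 2 had none.

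The ratio of the 3p to the 5p arm tells how the reads listed for a locus divide between partner and guide within 1 library. It does not depend on the denominator, but it does depend on how near-identical 5p reads were split. The log2 form used in the tests adds 1 RPM to each arm, which weighs most where the 3p arm is near 0. For MIR396a the plain ratio was 1.94 and 2.40 in ACL5 WT and 4.87 and 0.0858 in ACL5 ktn1. It was 0.444 and 0.0194 in EN7 WT and 0.00648 and 0.00304 in EN7 ktn1. The partner strand thus exceeded the guide in 3 of 4 ACL5 libraries and in no EN7 library. In seedlings the ratio was 0.0821 and 0.127 in WT and 0.0678 and 0.114 in ktn1, and the guide was the higher arm in all 4 libraries.

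For MIR396b the guide was the higher arm in all 12 libraries. The ratio was 0.00447 and 0.00325 in ACL5 WT, 0.00964 and 0.000286 in ACL5 ktn1, and 0.00522 in EN7 WT replicate 1. In EN7 WT replicate 2 it was 3.5e-05 and in EN7 ktn1 replicate 1 it was 9.46e-05, from 2 and 12 inferred 3p reads. No 3p read in EN7 ktn1 replicate 2 allows a ratio of up to 5.75e-05. In seedlings it was 0.0206 and 0.0355 in WT and 0.0157 and 0.0261 in ktn1, above every AGO1 library.

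**Figure D2:**
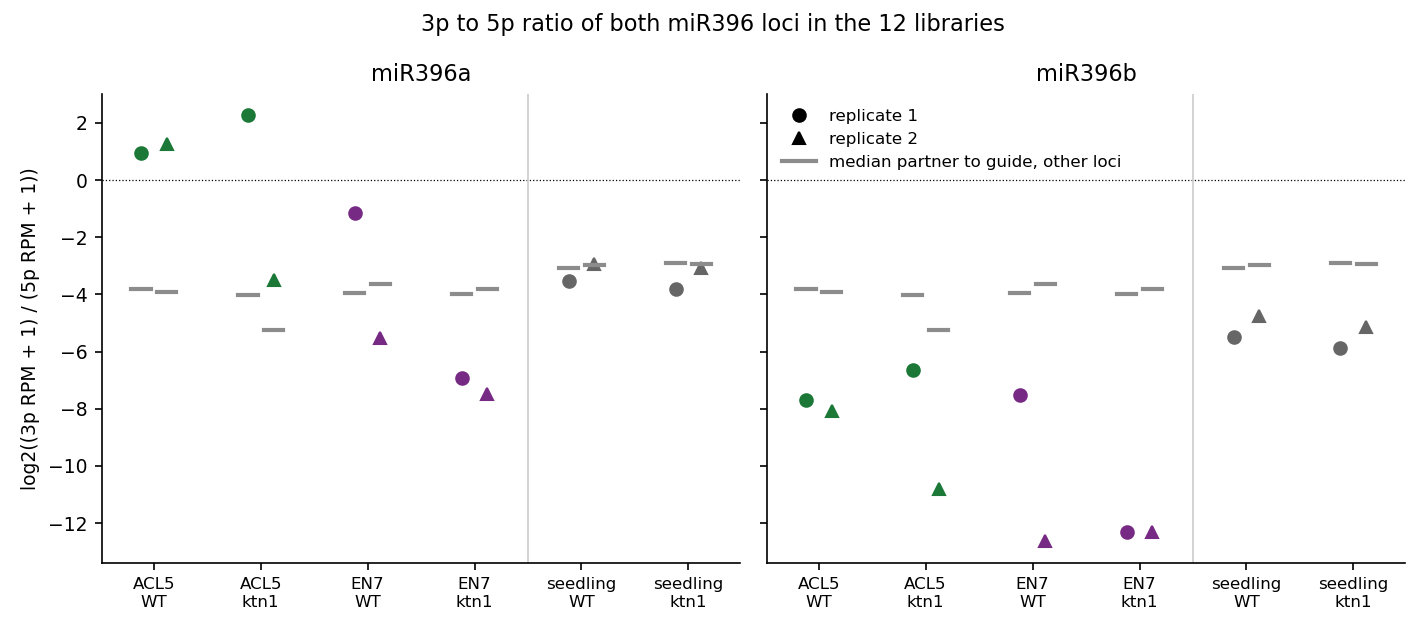
3p to 5p ratio of MIR396a (left) and MIR396b (right) in each library, as log2((3p RPM + 1)/(5p RPM + 1)), by group. Circles are replicate 1 and triangles replicate 2; grey bars give, for the same library, the median log2 ratio of partner to guide over 33 other loci. The 3 miR396a points above 0 are ACL5 libraries in which the partner strand exceeded the guide.

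Other loci were read in the same way, taking as partner the arm that was lower in seedlings. Over 33 other loci, or groups of loci that share an entry, the median log2 ratio of partner to guide was between -4.03 and -3.64 in 7 AGO1 libraries, and -5.24 in ACL5 ktn1 replicate 2. It did not follow the split of the miR396 3p arms in EN7 WT, where it was -3.95 in replicate 1 and -3.64 in replicate 2. The summed partner strands without miR165 and miR166 (31 units) did: they made up 1.94% of both arms in EN7 WT replicate 1 and 1.38% in replicate 2, and 1.69% and 0.938% in the ACL5 ktn1 replicates. They made up 1.78% and 1.94% in ACL5 WT, and 0.839% and 0.822% in EN7 ktn1. The part of these library differences in the miR396 ratios was not tested.

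Between replicates, the log2 ratio of 3p to 5p differed by 5.79 for MIR396a and 4.18 for MIR396b in ACL5 ktn1, and by 4.35 and 5.12 in EN7 WT. Among 35 units these absolute differences ranked 1 and 3 in ACL5 ktn1, and 5 and 2 in EN7 WT, against a median of 1.17 and 1.02 over the other units. In ACL5 WT and EN7 ktn1 both loci differed by at most 0.56 between replicates. For MIR396b in EN7 ktn1 the 3p values, 0.923 and 0 RPM, lay under the 1 RPM added to each arm. That addition largely sets its difference of 0.0138, which therefore does not measure how well those replicates match.

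The first question of the design is whether loss of KTN1 alters the miRNAs bound by AGO1 in each layer. In ACL5 lines none of the 4 miR396 entries passed the test, in a comparison that called 4.65% of 86 entries (limma, adjusted p under 0.05). miR396a-5p had the largest difference among the guides, 0.93 on the log2 scale in ktn1 minus WT (SE 0.61, 95% interval -0.51 to 2.37, adjusted p = 0.584, limma). It was the only entry of the 4 with both ktn1 libraries beyond both WT libraries. Over all 86 entries, 24.4% lay wholly above and 23.3% wholly below WT, so such a separation was common. miR396b-5p differed by 0.22 (95% interval -0.95 to 1.39, adjusted p = 0.856). The family sum was 3219 ± 534 RPM in WT and 4083 ± 163 RPM in ktn1 (SD, n = 2 each), with a log2 difference of 0.35 (adjusted p = 0.797, limma; 3.57% of 56 families called). The amount of AGO1-bound miRNA per cell and the number of cells with the fusion cannot be told apart in these bulk samples.

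For the partner strands in ACL5 the intervals were too wide to place a change. miR396a-3p differed by -0.78 (95% interval -5.53 to 3.96, adjusted p = 0.864) and miR396b-3p by -0.61 (95% interval -4.45 to 3.22, adjusted p = 0.864, limma). Without ACL5 ktn1 replicate 2 both differences were positive, at 1.67 and 1.22. The log2 ratio of 3p to 5p differed by -1.72 for MIR396a (adjusted p = 0.699) and by -0.83 for MIR396b (adjusted p = 0.855), in a comparison that called 0% of 29 arm ratios. These too were positive without that library, at 1.18 and 1.26.

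In EN7 lines no miR396 entry passed either, where 6.98% of 86 entries were called. miR396b-5p differed by 0.24 in ktn1 minus WT (SE 0.49, 95% interval -0.93 to 1.40, adjusted p = 0.844, limma) and miR396a-5p by -0.24 (95% interval -1.68 to 1.20, adjusted p = 0.864). Both entries overlapped between the genotypes, and both intervals include 0. miR396a-3p was lower in both ktn1 libraries than in both WT libraries, as were 34.9% of all 86 entries (11.6% lay wholly above). Its difference of -4.09 (SE 2.0, 95% interval -8.84 to 0.65) had an adjusted p of 0.339. With EN7 WT replicate 2 left out, so that only the high WT library remained, it was -6.68. With EN7 WT replicate 1 left out instead, it was -1.505. In both fits the lone WT library was assumed to vary like the other groups.

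The remaining EN7 differences were -2.00 for miR396b-3p (adjusted p = 0.566), -3.85 for the ratio of MIR396a (adjusted p = 0.302; -6.03 to -1.68 with 1 library left out) and -2.24 for the ratio of MIR396b (adjusted p = 0.561). In this comparison 6.90% of 29 arm ratios were called. The family sum was 7049 ± 2253 RPM in WT and 7910 ± 3392 RPM in ktn1 (SD, n = 2 each; log2 difference 0.13, adjusted p = 0.924, limma; 3.57% of 56 families called). This difference was smaller than the spread within either genotype.

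Whether the ktn1 difference depended on the layer was tested as an interaction, which called 2.33% of 86 entries. No miR396 entry passed. The ACL5 change minus the EN7 change was -0.014 for miR396b-5p (95% interval -1.67 to 1.64, adjusted p = 0.991, limma) and 1.18 for miR396a-5p (95% interval -0.86 to 3.21, adjusted p = 0.970). It was 3.31 for miR396a-3p and 1.39 for miR396b-3p (adjusted p = 0.970 each), and with 1 library left out the first ran from 0.72 to 5.90. For the ratios it was 2.13 for MIR396a and 1.40 for MIR396b (adjusted p = 0.811 each, with 6.90% of 29 called). The interaction of the family sum was 0.22 (adjusted p = 0.944; 1.79% of 56 families called).

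**Figure D3:**
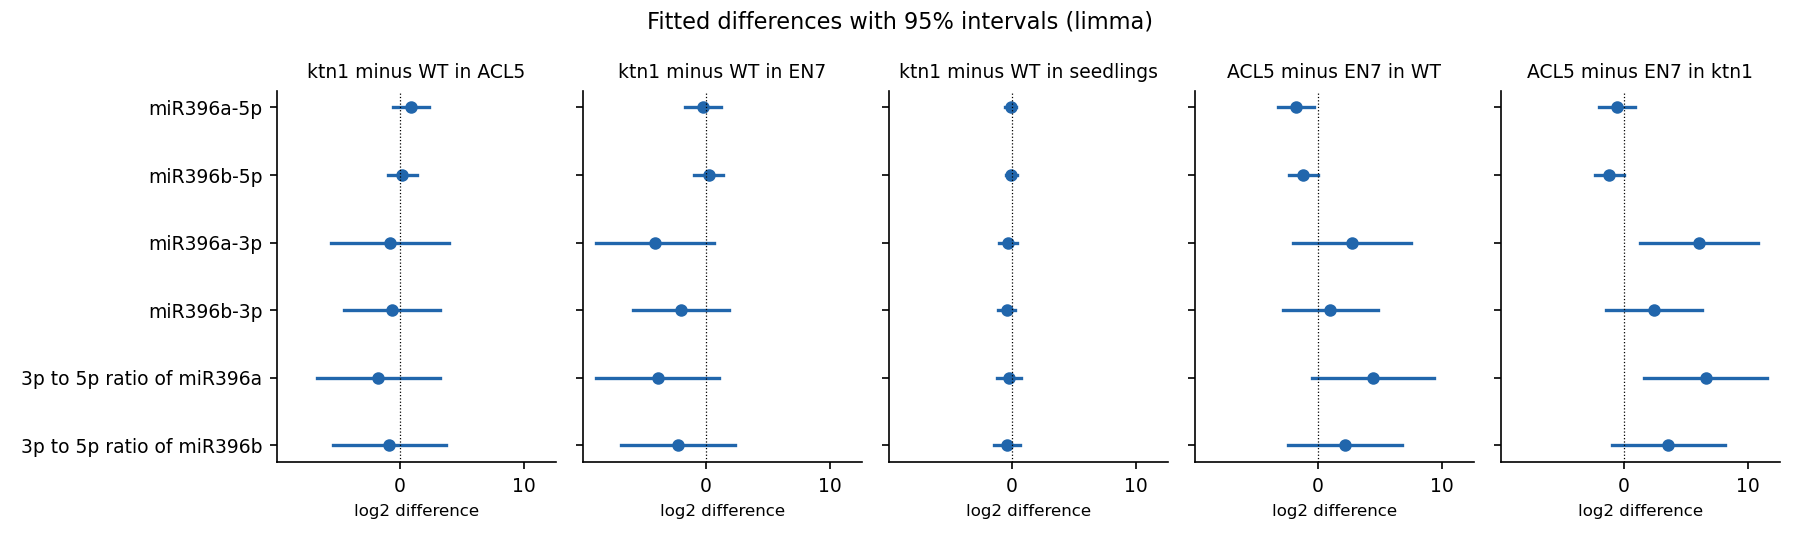
Fitted log2 differences of the 4 miR396 entries and of the 3p to 5p ratio of each locus in 5 comparisons, with 95% intervals from limma. Dots are estimates and bars are intervals; none of the 30 differences had an adjusted p under 0.05. The intervals of the 3p entries and of the ratios in the AGO1 libraries are wider than those of the 5p entries.

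Levels in the endodermis line and in the ACL5 line were compared within each genotype. In WT roots no miR396 entry passed adjustment. miR396a-5p differed by -1.74 on the log2 scale in ACL5 minus EN7 (SE 0.61, 95% interval -3.18 to -0.30, adjusted p = 0.183, limma). miR396b-5p differed by -1.17 (SE 0.49, 95% interval -2.34 to 0.0017, adjusted p = 0.254). For both, each ACL5 library lay below each EN7 library, as for 25.6% of 86 entries (30.2% lay wholly above), and 3.49% of entries were called. The partner strands overlapped, with differences of 2.71 for miR396a-3p (adjusted p = 0.407; 0.12 to 5.30 with 1 library left out) and 1.02 for miR396b-3p (adjusted p = 0.723). The ratio of 3p to 5p differed by 4.45 for MIR396a (95% interval -0.48 to 9.38, adjusted p = 0.290; 2.27 to 6.62 with 1 library left out) and by 2.18 for MIR396b (adjusted p = 0.562), with 0% of 29 ratios called. The family sum differed by -1.10 (adjusted p = 0.372; 3.57% of 56 families called).

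In ktn1 roots miR396b-5p again lay lower in both ACL5 libraries than in both EN7 libraries (-1.18, SE 0.49, 95% interval -2.35 to -0.012, adjusted p = 0.143, limma). This comparison called 16.3% of 86 entries, and 16.3% lay wholly below in ACL5. miR396a-5p overlapped, with a difference of -0.56 (adjusted p = 0.496). Both partner strands lay higher in both ACL5 libraries, as did 53.5% of all entries. miR396a-3p differed by 6.02 (SE 2.0, 95% interval 1.28 to 10.8, adjusted p = 0.083) and miR396b-3p by 2.40 (adjusted p = 0.322).

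The difference of miR396a-3p between the layers in ktn1, and its SE, depended on single libraries. With 1 library left out it ran from 3.57 to 8.47, the highest without ACL5 ktn1 replicate 2. It stayed at 6.02 without EN7 WT replicate 1 (SE 1.46) or replicate 2 (SE 1.45). The WT libraries are not part of this difference and enter it only through the shared spread. The ratio of MIR396a differed by 6.58 (SE 2.06, 95% interval 1.65 to 11.5, adjusted p = 0.095, limma), where 6.90% of 29 were called. With 1 library left out that ratio difference ran from 3.69 to 9.47. The ratio of MIR396b differed by 3.59 (adjusted p = 0.275), and the family sum by -0.88 (adjusted p = 0.255; 10.7% of 56 families called).

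Taken over both genotypes, a comparison added after the values were seen, miR396b-5p differed by -1.17 between ACL5 and EN7 (SE 0.35, 95% interval -2.00 to -0.35, adjusted p = 0.048, limma). All 4 ACL5 libraries lay below all 4 EN7 libraries, as for 8.14% of 86 entries (14.0% lay wholly above), and 25.6% of entries were called. Leaving out 1 library moved the number of entries called from 22 to between 6 (without ACL5 WT replicate 1 or EN7 ktn1 replicate 2) and 35 (without EN7 WT replicate 1). The call of miR396b-5p did not hold when any library other than EN7 WT replicate 1 was left out. Those 7 fits gave differences of -1.41 to -0.94 and adjusted p-values of 0.061 to 0.170. With libraries rescaled to equal miRNA sums the difference was -0.61 (adjusted p = 0.161). Without miR165 and miR166 in those sums it was -1.47 (adjusted p = 0.015), and with a trimmed mean of M values -1.42 (adjusted p = 0.022). The summed miRNA share was higher in EN7 ktn1 (53.6% and 59.5%) than in the other AGO1 libraries (25.1% to 37.2%).

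Over both genotypes, miR396a-5p differed by -1.15 (adjusted p = 0.095, limma) and the family sum by -0.99 (adjusted p = 0.085; 25.0% of 56 families called). miR396a-3p differed by 4.37 (adjusted p = 0.064, limma) and miR396b-3p by 1.71 (adjusted p = 0.273, limma). The ratio of MIR396a differed by 5.51 (SE 1.46, 95% interval 2.03 to 9.00, adjusted p = 0.055; 10.3% of 29 called) and that of MIR396b by 2.89 (adjusted p = 0.189). Without EN7 WT replicate 1, miR396a-3p differed by 5.66 (adjusted p = 0.015) and the ratio of MIR396a by 6.60 (adjusted p = 0.029). Without ACL5 ktn1 replicate 2, they differed by 5.59 (adjusted p = 0.033) and 6.96 (adjusted p = 0.011). Leaving out EN7 WT replicate 1 also brought under 0.05 the family sum (-1.16, adjusted p = 0.036), miR396b-3p (2.76, adjusted p = 0.047) and the ratio of MIR396b (4.17, adjusted p = 0.045). That fit called 35 entries, 22 families and 6 arm ratios, against 22, 14 and 3 with all libraries.

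In total RNA of seedlings the ktn1 and WT levels of the miR396 entries overlapped for all 4, where 35.5% of 62 entries lay wholly below WT in ktn1 and 9.68% wholly above. The log2 differences in ktn1 minus WT were -0.028 for miR396b-5p (95% interval -0.47 to 0.42, adjusted p = 0.937, limma), -0.099 for miR396a-5p (adjusted p = 0.854), -0.30 for miR396a-3p (adjusted p = 0.707) and -0.42 for miR396b-3p (adjusted p = 0.651). In this comparison 1.61% of 62 entries were called, and limma took the spread of an entry from entries of like level (124 degrees of freedom). The family sum was 890 ± 84.1 RPM in WT and 870 ± 240.0 RPM in ktn1 (SD, n = 2 each; log2 difference -0.058, adjusted p = 0.918; 0% of 39 families called). The ratios of 3p to 5p differed by -0.20 for MIR396a (adjusted p = 0.791) and by -0.39 for MIR396b (adjusted p = 0.613), with 0% of 30 called. Without ktn1 replicate 1, miR396a-5p differed by -0.30 and miR396b-5p by -0.36. Without ktn1 replicate 2 both differences were positive, at 0.10 and 0.30. Each of these fits leaves 1 ktn1 library.

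As a share of the listed miRNAs, the 4 entries together made up 1.03% to 2.32% in the AGO1 libraries and 3.39% to 4.79% in the seedling libraries. The lowest and the highest AGO1 share were both in EN7, in ktn1 replicate 2 and WT replicate 2.

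The profile of each entry over the 8 AGO1 libraries was compared with those of 82 entries of other families, by Pearson correlation of log2(RPM + 1). These values describe libraries that share their denominators and carry no test. miR396b-5p was most like miR167a-5p/miR167b (r = 0.95), a regulator of auxin response factors, and miR775 (r = 0.94). miR396a-5p was most like miR822-3p (r = 0.82) and miR171b-3p/miR171c-3p (r = 0.81), of which the second targets SCARECROW-like genes. miR396b-3p was most like miR158a-5p (r = 0.97) and miR157a-3p/miR157b-3p (r = 0.93), both from the arm opposite the guide.

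miR396a-3p was most like miR447a-3p/miR447b (r = 0.97) and miR5654-3p (r = 0.96). miR5654-3p was at 237 and 224 RPM in ACL5 WT, at 204 and 53.1 RPM in ACL5 ktn1, at 191 and 6.48 RPM in EN7 WT and at 14.5 and 1.77 RPM in EN7 ktn1, the same 4 libraries being high as for both miR396 partners. miR447a-3p/miR447b had a narrower range, from 15.8 to 103 RPM. Between the members, the 2 partner strands had r = 0.95 and the 2 guides r = 0.72. Guide and partner of MIR396a had r = -0.49, and those of MIR396b r = -0.68.

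**Figure D4:**
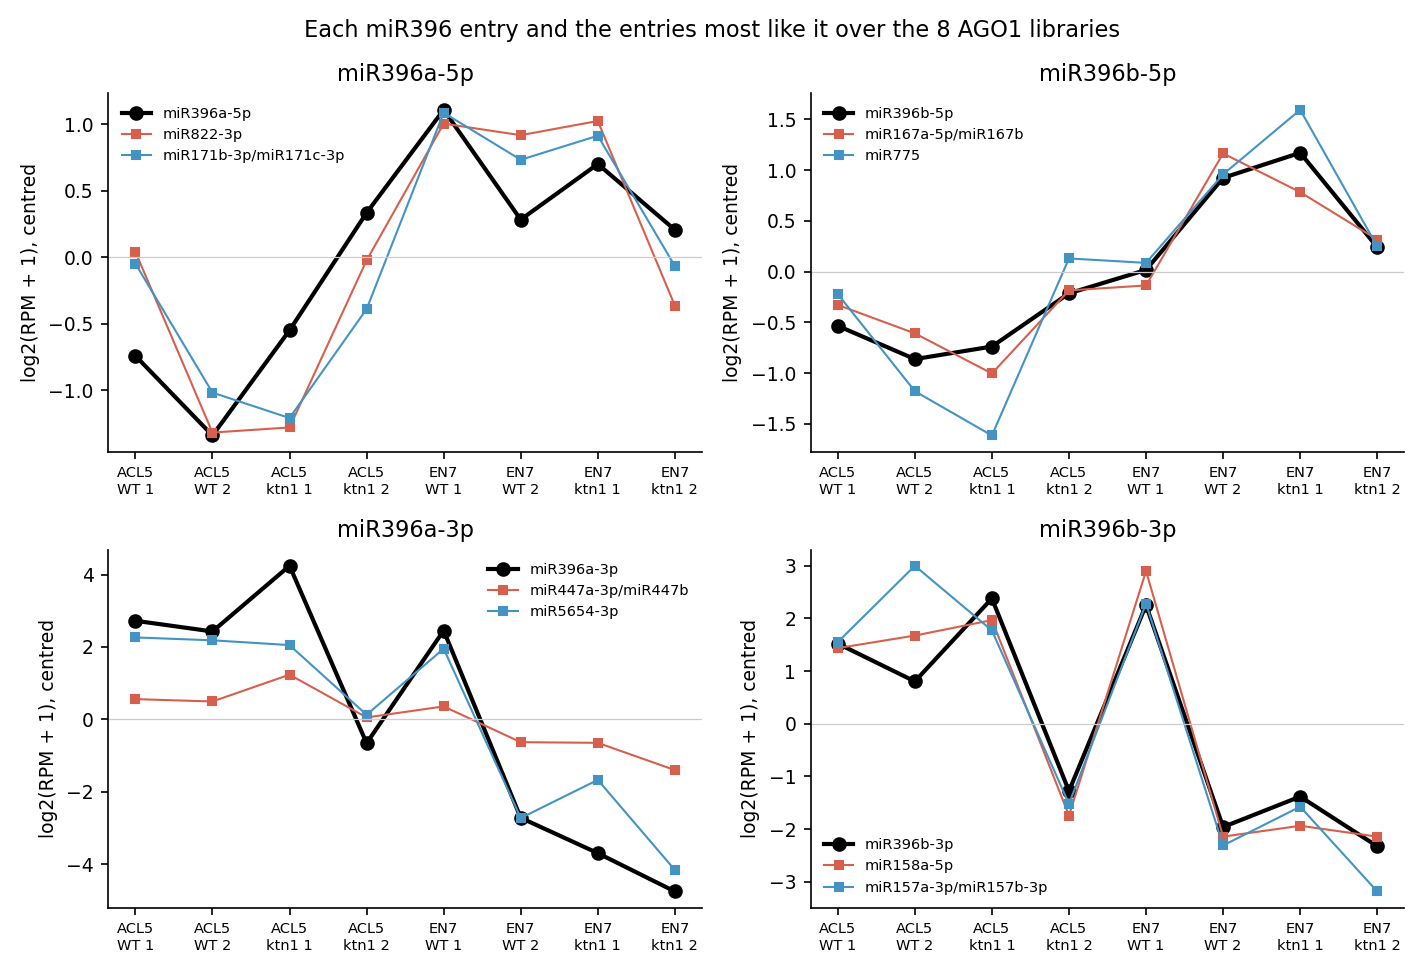
Each miR396 entry (black) and the 2 entries of other families with the highest Pearson correlation with it (red and blue), as log2(RPM + 1) minus the mean over the 8 AGO1 libraries. The horizontal axis gives line, genotype and replicate, and lines only join the points. The partner strands fall in ACL5 ktn1 replicate 2 and stand high in EN7 WT replicate 1. miR396b-5p is higher in every EN7 library than in every ACL5 library, as are 8.14% of 86 entries (14.0% are lower).

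Other miRNA families that act on developmental transcription factors or auxin signalling, from miR156 to miR394, were set beside miR396 as family sums. The list held 16 sums, with miR156 and miR157 kept apart, and likewise miR170, miR171 and entries named for both. Of these sums, 15 were tested. In ktn1 against WT, 0 were higher and 1 lower in ACL5, 1 was higher and 0 lower in EN7, with 2 of all 56 families called in each. In seedlings none passed (limma, adjusted p under 0.05), where all families tested gave 0 calls and 8 with an unadjusted p under 0.05. The family that passed in ACL5 and EN7 was that of miR165 and miR166, which act on HD-ZIP III genes, with log2 differences of -1.62 in ACL5 and 1.49 in EN7. The median log2 difference of the listed families in ACL5 was -0.59, against 0.067 over all 56 families, and in EN7 it was -0.28 against -0.39.

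Between layers 1 listed family was higher in ACL5 and 1 lower, in WT and again in ktn1. The higher was miR394, whose target is the F-box gene LCR, and the lower that of miR165 and miR166. miR394 differed by 4.57 in WT and 5.42 in ktn1, and miR165 with miR166 by -1.44 and -4.55. Over both genotypes, miR156 (1.66), miR164 (1.88), miR169 (1.65), reads named for both miR170 and miR171 (2.07), and miR394 (4.99) were called higher in ACL5. miR165 with miR166 was called lower (-2.99). The sum named for both miR170 and miR171 leaves out entries named for only 1 of them. Of those, miR171b-3p/miR171c-3p was at 14.5 to 33.7 RPM in the ACL5 libraries and 33.3 to 75.2 RPM in the EN7 libraries. The 6 of 15 listed sums called stand beside 14 of all 56 families called (25.0%). Leaving out 1 library moved that number of families to between 4 and 22. miR319, which acts on TCP genes that in Arabidopsis raise the transcription of MIR396, was not called in any of these comparisons. It was at 35354 and 28414 RPM in ACL5 WT, 11680 and 30288 RPM in ACL5 ktn1, 8796 and 29464 RPM in EN7 WT, and 11816 and 12766 RPM in EN7 ktn1. Like the miR396 partners, it differed widely between the replicates of ACL5 ktn1 and of EN7 WT, but in the opposite direction.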

How the data were processed

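Small RNA was sequenced from 12 libraries, in 6 groups of 2 taken from the sample titles. The authors deposited 1 table per library, with a value in RPM (reads per 1000000 reads) for each mature miRNA name; that unit was judged from the values. The submitters' processing notes name cutadapt, Bowtie and the build TAIR10. The miRNA annotation, the length filter and the reads counted in the denominator are not given in the sources used here. Every value (100%) was a whole multiple of its table's lowest, within 0.02 steps. That lowest value was taken as 1 read, which gives inferred reads, denominators and a floor of 3 reads. Each table held only 62 to 95 values of at most 20 steps, under the 100 required to treat reads as recovered, so these reads are an inference and no count test was run on them. Floors cover counting error only.

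The 4 miR396 entries, and the list of developmental miRNA families, were chosen with earlier results of these data known. All 4 entries were named in every comparison. Of other miRNAs, the 2 entries with the highest Pearson correlation with each miR396 entry were named, and any listed family with an adjusted p under 0.05. An entry that a file does not list was taken as 0.

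Tests used log2(RPM + 1), which understates changes of low entries. An entry was tested if 2 or more libraries of the fit had 10 RPM or more, and all 4 miR396 entries passed in both fits. A fit held the 8 AGO1 libraries, with their 4 group means, and another the 4 seedling libraries. limma 3.58.1 in R 4.3.3 was used with a mean-variance trend, two-sided, with Benjamini-Hochberg adjustment over all entries tested and a threshold of 0.05. Family sums and the log2 ratio of the 3p to the 5p arm were tested in the same way. Loci that share an entry were joined into 1 unit for the ratios, and the trend of the ratios followed the level of the lower arm. The fits were tested on simulated data. The comparison of layers over both genotypes was added after the values were seen. Permutation tests, likeness and plots used Python 3.11.15, NumPy 2.4.6, SciPy 1.17.1, pandas 2.3.3 and matplotlib 3.10.9. Replicate numbers come from the titles, and no label says that a number marks a shared plant, batch or day. Alternatives were pseudocounts, filters, rescalings, limma without a trend, a replicate block, a fit of the compared groups alone and leaving out each library.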

Additional observations from a re-analysis of the deposited data

How the results depend on the processing

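No label says that replicate numbers mark a shared batch, and each comparison has only 2 pairs. Libraries that share a number deviated from their group means with a correlation of -0.48 for ACL5, 0.42 for EN7, -0.17 between layers in WT, 0.013 between layers in ktn1 and 0.18 in seedlings. With the replicate number as a block, miR396a-3p passed between layers in ktn1 (6.02, adjusted p = 0.035, limma). It also passed between layers over both genotypes (4.37, adjusted p = 0.034), where miR396b-5p no longer did (-1.17, adjusted p = 0.085). The block gave 1 entry called instead of 3 between layers in WT, 0 instead of 1 in seedlings and 12 instead of 22 over both genotypes; it moved no other call of the miR396 values. With the pairing crossed, chosen after seeing the data, 10 entries were called over both genotypes.

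The 54 differences of the miR396 entries, sums and ratios were recomputed under 811 alternatives, of which 715 kept direction and side of the threshold, 13 lost the call, 24 gained it and 59 changed sign. Some alternatives could not change the direction, such as dropping the trend or leaving out a library outside the compared groups. The ratio of miR396b-5p to miR396a-5p was judged by direction alone. The 715 thus include outcomes fixed in advance. The cause of the changes was not tested. Count-based tests on recovered reads, planned as alternatives, were not run, because each table holds only 62 to 95 values of at most 20 steps, under the 100 required to treat the reads as recovered. Low counts limit miR396b-3p most, with 0 to 12 inferred reads in 3 EN7 libraries and 10 in ACL5 ktn1 replicate 2. The EN7 ktn1 libraries, with 12 and 0 of these reads, had the largest denominators of the AGO1 libraries (13004041 and 10191562 reads).

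Rescaling to equal miRNA sums moved miR396b-5p by -0.25 in ACL5, -0.74 in EN7, 0.81 between layers in ktn1 and 0.25 in seedlings. It turned miR396b-5p to -0.029 in ACL5, -0.50 in EN7, 0.48 in the interaction and 0.22 in seedlings. It turned the family sum to -0.60 in EN7 and 0.19 in seedlings, and miR396a-5p to 0.24 between layers in ktn1 and 0.15 in seedlings. Under it miR396a-3p passed between layers in ktn1 (6.58, adjusted p = 0.035) and over both genotypes (4.80, adjusted p = 0.030), and miR396b-5p over both genotypes did not (-0.61). It called 33 entries instead of 14 between layers in ktn1, and 37 instead of 22 over both genotypes.

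Leaving miR165 and miR166 out of those sums turned miR396b-5p to -0.23 and the family sum to -0.095 in ACL5, and the interaction of the family sum to -0.21. In seedlings it turned miR396a-5p to 0.16, miR396b-5p to 0.23 and the family sum to 0.20. miR396b-5p then passed between layers in ktn1 (-1.69, adjusted p = 0.037), and miR396a-5p (-1.44) and the family sum (-1.28) over both genotypes. It called 7 entries instead of 4 in ACL5. The trimmed mean of M values turned miR396a-5p to 0.063 in EN7 and the interaction of the family sum to -0.069. In seedlings it turned miR396a-5p to 0.098, miR396b-5p to 0.17 and the family sum to 0.14. Over both genotypes miR396a-5p (-1.40) and the family sum (-1.24) then passed.

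miR396b-5p over both genotypes stayed at -1.17 but did not pass with no filter (adjusted p = 0.063), a filter at 50 RPM (0.051), no trend (0.073) or the crossed pairing (0.079), and with the crossed pairing the ratio of MIR396a passed (5.51, adjusted p = 0.011). In seedlings 1 entry was called; 0 were under the filter at 50 RPM, no trend, a pseudocount of 10 RPM or any of the 3 rescalings, and 4 with no filter. In ACL5, where 4 were called, there were 7 with no filter or with only the 4 libraries compared, and 2 without a trend or with a pseudocount of 0.1 RPM. Without a trend 0 were called in the interaction and between layers in WT, and with only the 4 libraries compared 0 between layers in WT.

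With 1 library left out at a time, values changed as follows. miR396a-5p ran from -0.66 to 0.17 in EN7 and -0.30 to 0.10 in seedlings. miR396b-5p ran from -0.040 to 0.48 in ACL5, -0.23 to 0.70 in EN7, -0.48 to 0.45 in the interaction and -1.41 to -0.94 over both genotypes. miR396b-5p also ran from -0.36 to 0.30 in seedlings. miR396a-3p ran from -3.23 to 1.67 in ACL5, -6.68 to -1.50 in EN7, 3.57 to 8.47 between layers in ktn1 and 3.07 to 5.66 over both genotypes. miR396a-3p also ran from -0.63 to 0.024 in seedlings. miR396b-3p ran from -2.44 to 1.22 in ACL5, -4.11 to 0.11 in EN7, -0.72 to 3.495 in the interaction and -1.09 to 3.12 between layers in WT. miR396b-3p also ran from 0.66 to 2.76 over both genotypes and -0.89 to 0.045 in seedlings. The family sum ran from -0.32 to 0.59 in EN7, -0.23 to 0.67 in the interaction, -1.22 to -0.77 over both genotypes and -0.34 to 0.23 in seedlings. The 3p to 5p ratio of MIR396a ran from -4.61 to 1.18 in ACL5, -0.76 to 5.03 in the interaction, 3.69 to 9.47 between layers in ktn1 and 4.07 to 6.96 over both genotypes. The 3p to 5p ratio of MIR396a also ran from -0.57 to 0.16 in seedlings. The 3p to 5p ratio of MIR396b ran from -2.92 to 1.26 in ACL5, -4.80 to 0.32 in EN7, -1.16 to 3.96 in the interaction and -0.38 to 4.75 between layers in WT. The 3p to 5p ratio of MIR396b also ran from 1.605 to 4.17 over both genotypes. The log2 ratio of miR396b-5p to miR396a-5p ran from -0.39 to 1.34 in EN7, -0.29 to 1.44 between layers in WT and -0.056 to 0.20 in seedlings. The number of entries called ran from 1 to 9 in ACL5, 5 to 19 in EN7, 2 to 4 in the interaction and 2 to 21 between layers in ktn1. The number of entries called also ran from 0 to 10 in seedlings and 6 to 35 over both genotypes.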
